A study of Saccharomyces cerevisiae with 4 samples.

Results

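The genes described here are 10 genes of Saccharomyces cerevisiae tied to mating and filamentous growth: the kinase genes FUS3 (YBL016W) and KSS1 (YGR040W), the transcription factor genes STE12 (YHR084W), TEC1 (YBR083W) and SFG1 (YOR315W), the mating genes FUS1 (YCL027W), FAR1 (YJL157C) and AGA1 (YNR044W), and the genes PRM10 (YJL108C) and NFG1 (YLR042C). They were taken by systematic name from the 6172 genes and reading frames of the deposited table, and all 10 had a value on all 4 arrays. The genes were chosen by role, but with earlier results of the same zymolyase ratio in view, and PRM10, NFG1 and SFG1 were selected on their mean ratio over the 4 arrays: PRM10 and NFG1 were among the largest increases and SFG1 among the largest decreases. The zymolyase ratios of the 10 genes are therefore given as a description, without a p-value, and they support nothing beyond themselves.

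The question was whether PRM10 and NFG1 moved with the genes of the mating and filamentation kinases when the cell wall was damaged. Each of the 4 two-colour arrays set RNA of an rlm1 mutant culture exposed to zymolyase at 5 units per ml and collected at 3 hours against RNA of the portion of that culture left without the enzyme. Both sides grew in YEPD, a rich medium, at 24 °C, and both lacked the transcription factor Rlm1, through which the cell wall integrity pathway controls its target genes. There was no wild-type strain on these arrays, so nothing here says what the loss of Rlm1 did to any gene. The design holds 2 cultures, and each was hybridised once in either dye orientation. The RNA of zymolyase cultures was labelled with Cy3 on arrays 1 and 3 and with Cy5 on arrays 2 and 4. The strain background and mating type are not given in the labels.

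Yeast mating and filamentous growth run through a shared kinase cascade. In mating, pheromone binds a receptor at the cell surface, a G protein passes the signal through Ste20, Ste11 and Ste7 on the scaffold Ste5, and the kinase Fus3 activates the transcription factor Ste12, which raises genes of cell fusion and growth arrest. In filamentous growth the mucin Msb2 and the membrane protein Sho1 feed the same upstream kinases, the kinase Kss1 takes the place of Fus3, and Ste12 acts together with Tec1. Ste12 and the kinase genes are themselves among the genes that the cascade controls.

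All values are log2 ratios of zymolyase over untreated RNA, with the authors' deposited log ratios taken as base 2. Arrays 2 and 4 were multiplied by -1 for the dye exchange, and the deposited ratio was read as Cy3 over Cy5. That reading is likely rather than settled, since it was chosen because it places known stress genes on the zymolyase side. The opposite reading turns every sign given here. That the deposited ratios had not already been turned is a further assumption. Taken as already turned, PRM10, NFG1 and KSS1 had negative means and SFG1 a positive mean. In that case 215 genes passed the test below as higher and 101 as lower. Array 2 was the widest, with an SD of 0.63 over genes, against 0.32 to 0.35 on the other arrays. It also lacked a value for 1385 genes, against 548 to 659 on the other arrays. A gene passed the test when its adjusted p in limma was under 0.05 in both possible pairings of arrays into cultures, which came down to a mean of at least 0.51 in size. A further fit with a dye term took the 4 arrays singly and did not allow for arrays that share a culture. Of the 4730 genes with a value on all 4 arrays, 149 passed, which is 3.15% (2.35% higher, 0.803% lower), and the median mean ratio of all of them was -0.01.

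Of the 10 genes, 3 passed as higher (NFG1, PRM10 and KSS1), SFG1 passed as lower, and the other 6 did not pass. Because the genes were chosen with this ratio in view, that count is not read against the 3.15% of all genes. For the 10 genes, passing or not passing, here and in the further fits, only describes their values and is not evidence of an effect. The median of the 10 means was 0.06. The sign was the same on all 4 arrays for 5 of them, which were NFG1, PRM10, KSS1 and FAR1 on the positive side and SFG1 on the negative side. Over all genes 16.8% had the same sign on all 4 arrays, 7.99% positive and 8.79% negative. NFG1, PRM10 and SFG1 were selected on their mean over these arrays, which favours a shared sign. The 5 genes are therefore not read against that share.

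**Figure D1:**
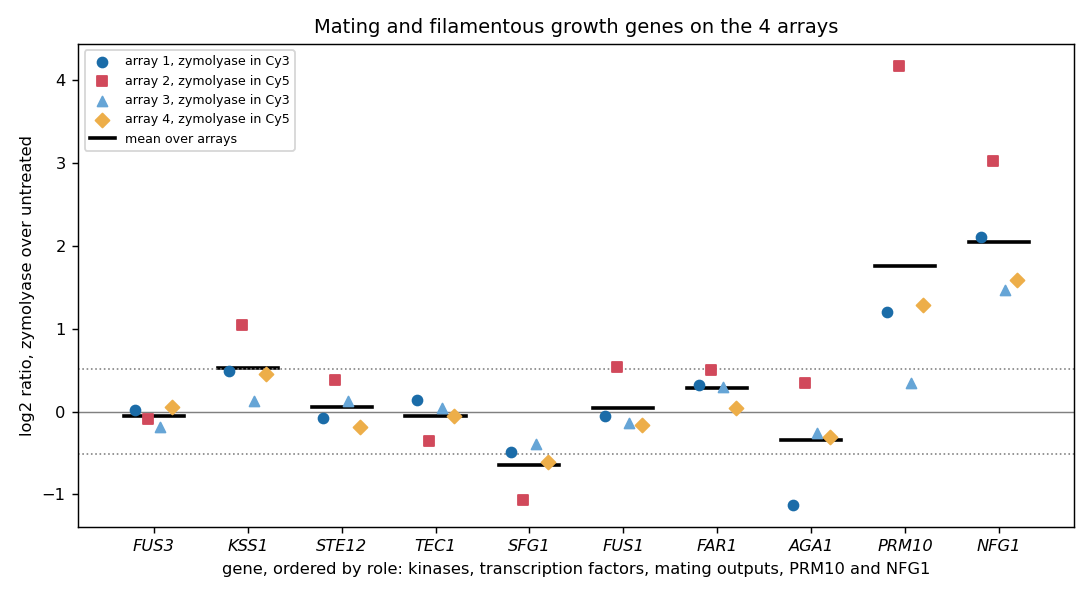
Log2 ratio of zymolyase over untreated RNA (y axis) for the 10 genes (x axis) on each of 4 arrays, with the mean as a bar and dotted lines at 0.51 above and below 0, the smallest mean that passed the test. NFG1 lies between 1.47 and 3.03 and PRM10 between 0.35 and 4.18, whereas FUS3, STE12, TEC1 and FUS1 have means within 0.06 of 0.

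The kinase genes differed from each other. FUS3 encodes the kinase of the mating branch, and its log2 ratios on arrays 1 to 4 were 0.02, -0.09, -0.18 and 0.06, with a mean of -0.05 ± 0.11 (SD, n = 4 arrays). Its values lay on both sides of 0 with either dye, and its SD was the smallest of the 10 genes. KSS1 encodes the kinase of the filamentation branch, which also takes part in mating, and its ratios were 0.49, 1.04, 0.13 and 0.45, with a mean of 0.53 ± 0.38. KSS1 was positive on every array, highest on array 2 and lowest on array 3. Its mean was 1.44-fold on the linear scale and just above the smallest size that passed. Without array 2 it was 0.36. KSS1 did not pass with a dye term in the fit, with the arrays scaled to one spread or centred on their medians, when genes with 3 values were added, or with any array left out.

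The transcription factor genes of the cascade stood near 0. STE12, the factor that both branches share, had ratios of -0.08, 0.39, 0.13 and -0.19, with a mean of 0.06 ± 0.25. TEC1, which encodes the partner of Ste12 at filamentation genes, had ratios of 0.14, -0.35, 0.05 and -0.05, with a mean of -0.05 ± 0.21. Both genes had 2 positive and 2 negative values, and neither mean exceeded its SD over the arrays. SFG1, which encodes a putative transcription factor of superficial pseudohyphal growth, had ratios of -0.49, -1.06, -0.40 and -0.61, with a mean of -0.64 ± 0.30. It was negative on every array and lowest on array 2, and its mean was the twelfth lowest of the 4730 genes. SFG1 still passed with a dye term, with the arrays scaled to one spread or centred on their medians, and when genes with 3 values were added. Without array 2 its mean was -0.50, and it did not pass with any single array left out. In those fits 0 to 3 of all genes passed as lower.

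The classical outputs of the mating branch did not pass. FUS1 encodes a membrane protein of cell fusion and is widely used as a reporter of the pheromone response. Its ratios were -0.05, 0.54, -0.13 and -0.16, with a mean of 0.05 ± 0.33. The positive value was that of array 2 alone, and without that array the mean was -0.11. FAR1 encodes the inhibitor that holds cells in G1 during mating, and its ratios were 0.32, 0.50, 0.29 and 0.04, with a mean of 0.29 ± 0.19. FAR1 was positive throughout and had the smallest difference between dye orientations of the 10 genes, 0.03. AGA1 encodes the wall-anchored subunit of the a-agglutinin, which binds mating partners to each other, and its ratios were -1.13, 0.34, -0.26 and -0.31, with a mean of -0.34 ± 0.60. Its mean rested on array 1, without which it was -0.08.

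NFG1 and PRM10 lay far above the rest. NFG1, named for negative regulation of filamentous growth, encodes a protein linked to the cell wall, and its ratios were 2.11, 3.03, 1.47 and 1.60. The mean was 2.05 ± 0.71, or 4.14-fold, the fifth highest of the 4730 genes. The lowest of its 4 values lay above the highest value of any of the other 8 genes, PRM10 left aside. NFG1 passed whichever array was left out, with a mean of the other 3 arrays between 1.72 and 2.24. Since NFG1 was selected on its mean over these arrays, this gap and these fits describe its values and support nothing further. PRM10 encodes a membrane protein named for its regulation by pheromone, and its ratios were 1.21, 4.18, 0.35 and 1.29. Its mean was 1.75 ± 1.67, or 3.37-fold, the eighth highest. PRM10 was carried by array 2, without which its mean was 0.95, and it did not pass without array 2 or without array 4. Scaled to one spread for all arrays, its values were 1.70, 2.35, 0.44 and 1.77 and its mean was 1.57 ± 0.81. With the same scaling NFG1 had 2.98, 1.71, 1.86 and 2.19, so that its highest value moved to array 1.

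In these ratios NFG1 and PRM10 lay apart from the mating genes on most arrays. Both were selected for a high mean over these arrays, so a gap of this kind follows in part from the selection and is only described. On array 3, where both had their lowest value, PRM10 stood at 0.35, FAR1 at 0.29 and NFG1 at 1.47. On array 1 both were above 1, while FUS1 and STE12 were slightly negative and AGA1 was at -1.13. KSS1 had its highest value on array 2 and its lowest on array 3, as PRM10 and NFG1 did. SFG1 likewise had its largest and smallest values in size on these arrays, and array 2 was the widest for all genes. The mean of KSS1 was 0.53, against 1.75 for PRM10 and 2.05 for NFG1. The ratios do not include a strain without FUS3, KSS1 or STE12, so whether these kinases act on either gene was not tested.

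Likeness was measured as the Euclidean distance between genes over the 4 turned arrays, among genes with a standard name and 4 values. The genes nearest to NFG1 were HXT1 (distance 0.62), a low-affinity glucose transporter gene, DDR2 (0.65), a stress gene, GPD1 (0.90) of glycerol synthesis, RTC3 (1.55) and HSP12 (1.63), the last also a stress gene. Those nearest to PRM10 were DDR2 (1.82), NFG1 itself (1.87), the wall protease gene YPS3 (2.40), SOL4 (2.47) of the pentose phosphate pathway and HXT1 (2.47). Of the other 8 genes, KSS1 was closest to both, at 3.11 from NFG1 and 3.33 from PRM10, and SFG1 was farthest, at 5.64 and 5.87. Distances of this kind follow the size of the ratios and rest on 4 arrays that share their RNA in pairs, so they describe where the genes lie and carry no test.

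Differences between arrays were set beside these means. A zymolyase effect equal on all arrays cancels in them. They still hold any difference in response between cultures and in the width of the arrays, of which array 2 was the widest. The difference between the dye orientations, Cy3 minus Cy5, was -1.95 for PRM10, and 0.19% of the 4730 genes had a difference of larger size. It was -0.52 for NFG1, -0.44 for KSS1, 0.39 for SFG1 and -0.71 for AGA1. Over all genes this difference had an SD of 0.52. Between cultures, PRM10 differed by 1.87 if arrays 1 and 2 share a culture and by 1.02 if arrays 1 and 4 do. NFG1 differed by 1.04 and 0.40 under the same pairings, and over all genes the SD of these differences was 0.31 and 0.32. For PRM10 the differences by dye and under the first pairing were thus as large as the mean itself, whereas for NFG1 each was smaller than its mean.

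**Figure D2:**
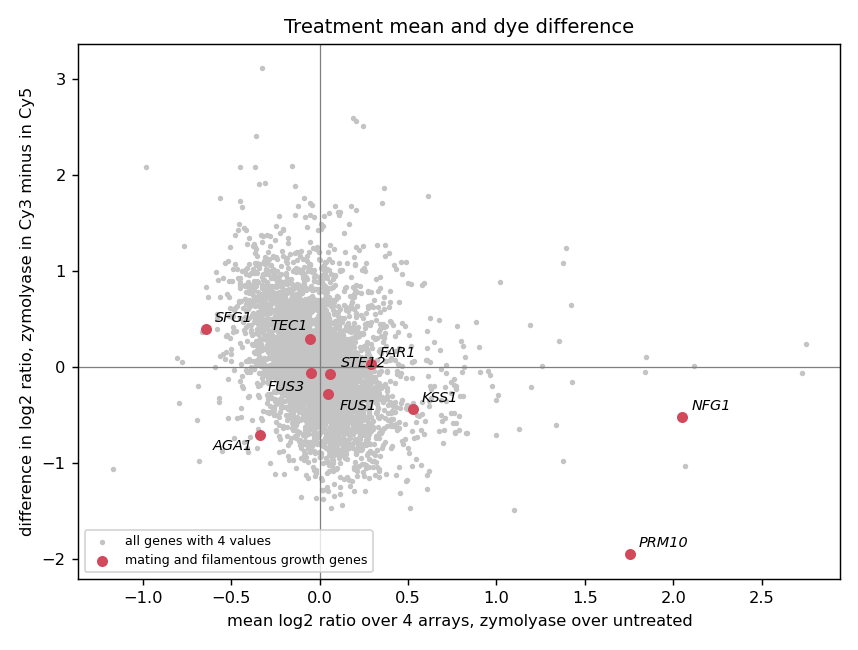
Mean log2 ratio of zymolyase over untreated RNA over 4 arrays (x axis) against the difference in log2 ratio between arrays with zymolyase RNA in Cy3 and in Cy5 (y axis), for 4730 genes in grey and the 10 genes in red. PRM10 lies at 1.75 with a dye difference of -1.95 and NFG1 at 2.05 with -0.52, while FUS3, STE12, TEC1 and FUS1 lie among the bulk of genes.

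The genes on either side of the 4 that passed were also examined. YJL107C, the reading frame that follows PRM10 in the reference gene table, had ratios of 0.94, 3.29 and 1.01 on arrays 1 to 3 and no value on array 4, so it was not tested. Its mean over 3 arrays was 1.74 ± 1.34 (SD, n = 3 arrays), close to that of PRM10, and its highest value was again that of array 2. On the other side of PRM10, the ribosome assembly gene UTP10 had a mean of -0.05 ± 0.55 with 2 positive and 2 negative values.

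AFB1, next to NFG1, encodes the barrier to a-factor that alpha cells secrete, and its ratios were 0.23, 1.61, -0.07 and 0.71. Its mean was 0.62 ± 0.74 (SD, n = 4 arrays), and it rose in the limma fit (adjusted p = 0.0070), with 3 of 4 arrays positive. All genes share a standard error in that fit, so the adjusted p does not reflect the wide spread of AFB1. AFB1 did not pass with a dye term (limma, adjusted p = 0.10), and without array 2 its mean was 0.29. TRX1, the thioredoxin gene on the other side of NFG1, had a mean of 0.03 ± 0.20. Beside KSS1, the bud site gene BUD9 had ratios of 0.38, 0.17, 0.42 and 0.51 and did not pass (limma, adjusted p = 0.28), and YGR039W had 3 values between 0.04 and 0.21. Beside SFG1, the metal transporter gene COT1 had a mean of 0.40 ± 0.42 and did not pass (limma, adjusted p = 0.21), on the opposite side of 0 from SFG1, and YOR314W had values of -0.69 and 0.66 on arrays 3 and 4.

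**Figure D3:**
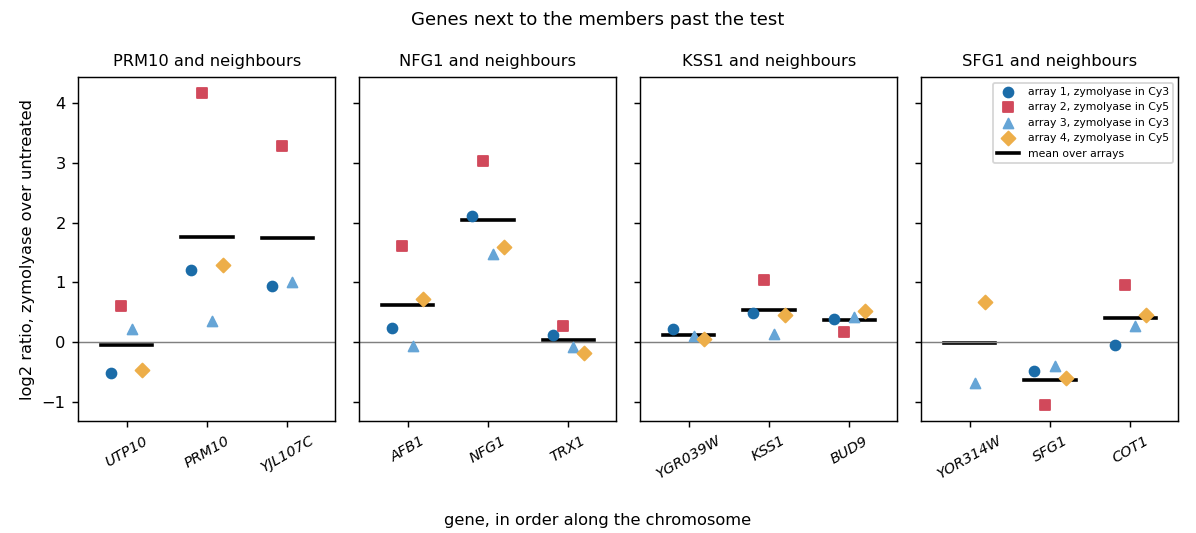
Log2 ratio of zymolyase over untreated RNA (y axis) on each array for PRM10, NFG1, KSS1 and SFG1 with the genes on either side of each in the reference gene table (x axis, in chromosome order), with means as bars. YJL107C reaches 3.29 beside PRM10 at 4.18 on array 2, while UTP10 and TRX1 have means of -0.05 and 0.03.

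A wider set of 74 genes of the same pathways was then examined, of which 52 had a value on all 4 arrays, 15 on some and 7 on none. Of the 52, 2 rose (PCL2 and NRG1), none fell and 50 did not pass, which is 3.85% against 3.15% of all genes. By the unadjusted limma p, 5 were higher and 1 lower at the 0.05 level, and with a dye term 1 was higher and 0 lower. The median of the 52 was 0.02. Neither increase passed with any array left out.

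Of 19 components of the cascade tested besides the 10 genes, none passed in either direction (by the unadjusted limma p 1 was higher and 0 lower, and with a dye term 0), and their median was -0.03. MSB2, the mucin sensor of the filamentation branch, had the largest mean, with ratios of 0.15, 0.75, 0.39 and 0.65. It was positive on all 4 arrays but did not pass (0.49 ± 0.27, limma adjusted p = 0.072). In the single pairing of arrays 1 with 2 and 3 with 4 it passed (limma, adjusted p = 0.042). SHO1, which acts with Msb2, had a mean of 0.25 ± 0.38 (limma, adjusted p = 0.58). The scaffold gene STE5 had values on 2 arrays, STE11 and OPY2 on 3, and the receptor gene STE3 and the phosphatase gene PTP2 on none.

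Among 21 other genes known to be raised by pheromone, 1 rose and 20 did not pass, with a median of -0.01. The gene that rose was PCL2, a cyclin gene of the G1 phase that pheromone also raises, with ratios of 0.47, 1.27, 0.62 and 0.51 and a mean of 0.72 ± 0.38 (limma, adjusted p = 0.00077, or 0.035 with a dye term). PCL2 was positive on all 4 arrays, and its mean without array 2 was 0.53. The chitin precursor gene GFA1 had a mean of 0.41 ± 0.50, of which array 2 held 1.13 (limma, adjusted p = 0.19).

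PRM10 had the highest mean of the genes that share its name, but it was selected for a high mean. Without array 2 the mean of PRM10 was 0.95. The others with 4 values were PRM4, PRM5, PRM7, PRM8 and PRM9, and their means lay between -0.14 and 0.15. None of the 5 passed, by the unadjusted p or with a dye term either. PRM5, the highest, ranged from -0.34 on array 3 to 0.75 on array 2. PRM1, PRM3 and PRM6 had values on arrays 3 and 4 only and PRM2 on none, so the family was covered in part. The name groups genes by their regulation, and no protein comparison was made here.

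Of the 4 genes tied to Tec1 and Kss1 that were tested besides KSS1, NFG1, TEC1 and AGA1, which were MSB2, SVS1, CLN1 and BUD8, none passed (by the unadjusted limma p 2 were higher, and with a dye term 0). Their median was 0.37, against -0.01 for all genes. SVS1, a wall protein gene, had ratios of 0.71, 0.07, 0.55 and 0.45 and a mean of 0.45 ± 0.27 (limma, adjusted p = 0.13). The flocculin gene FLO11, the best known output of filamentous growth, had values of 0.05, -0.12 and 0.24 on arrays 1, 3 and 4. PGU1, an output of Tec1, had 1 value, -0.03 on array 1.

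Of 8 transcription factor genes of filamentous growth tested besides STE12, TEC1 and SFG1, 1 rose, which was NRG1, and 7 did not pass, with a median of 0.10. NRG1 encodes a repressor of filamentation and of glucose-repressed genes, and its ratios were 0.62, 1.09, 0.33 and 0.49 with a mean of 0.63 ± 0.33 (limma, adjusted p = 0.0054). With a dye term NRG1 did not pass (limma, adjusted p = 0.058). PHD1, which encodes an activator of pseudohyphal growth, had ratios of -0.35, -0.67, -0.59 and -0.39, negative on all 4 arrays as for SFG1, and did not pass (-0.50 ± 0.16, limma adjusted p = 0.062), except in the single pairing of arrays 1 with 2 and 3 with 4 (limma, adjusted p = 0.035). XBP1, a stress-induced repressor gene, had values of 0.46, 0.70 and 1.37 on arrays 1, 3 and 4 and none on array 2, with a mean of 0.84 ± 0.47 (SD, n = 3 arrays). It was therefore not tested with the others, but passed as higher when genes with 3 values were included, and did not pass in the fit without array 2. The factors FLO8, SOK2 and MSS11 had values on both sides of 0.

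**Figure D4:**
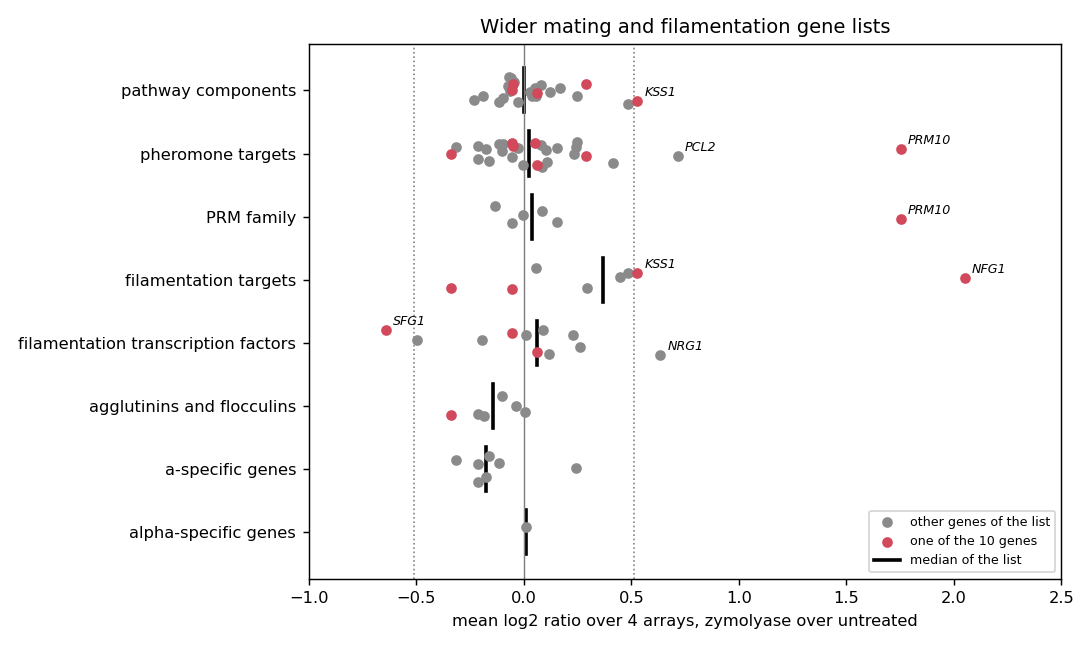
Mean log2 ratio of zymolyase over untreated RNA over 4 arrays (x axis) for each gene with 4 values, by gene list (rows), with the 10 genes in red, other genes in grey, the median of each list as a bar and dotted lines at 0.51 above and below 0. Genes that passed the test are named, and PCL2 at 0.72 and NRG1 at 0.63 are those outside the 10 genes.

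No tested gene of the adhesin and mating-type lists passed. AFB1, the alpha-cell gene that rose beside NFG1, was not on these lists. Of the 5 agglutinin and flocculin genes tested besides AGA1, the means lay between -0.22 for AGA2 and 0.01, and FIG2 ranged from -1.10 on array 1 to 0.72 on array 2. The flocculin genes are similar in sequence, and their spots may share labelled cDNA. All 7 genes of a cells had 4 values, with a median of -0.18 and medians of -0.16, -0.20, -0.24 and -0.30 on arrays 1 to 4. The a-factor gene MFA1 was negative on all 4 arrays, with ratios of -0.20, -0.26, -0.34 and -0.46 and a mean of -0.32 ± 0.11 (limma, adjusted p = 0.40). BAR1, the pheromone protease gene of a cells, was positive on all 4 arrays at 0.24 ± 0.17 (limma, adjusted p = 0.61). Of the 4 listed genes of alpha cells, MF(ALPHA)2 had 4 values with a mean of 0.01 ± 0.71, SAG1 had 3 values, and STE3 and MF(ALPHA)1 had none. Ratios give no level, so the mating type was not determined here. No gene of these lists passed by the unadjusted p or with a dye term.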

How the data were processed

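The authors' deposited table gives 1 log ratio of the channels per feature and array, taken here as a log2 value. How the arrays were scanned, corrected and normalized, and the log base, is not given in the sources used here. Without intensities, brightness over background could not be judged, and precision is limited by the number of arrays. Of 6209 features, 2 controls were left out and 5711 matched the R64 gene table, used for names and gene order only.

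Arrays of a culture were averaged and tested against 0 with limma 3.58.1 in R 4.3.3 (lmFit, eBayes, Benjamini-Hochberg over 4730 genes). Which arrays belong to 1 culture is not in the labels, so both possible pairings were fitted and the larger adjusted p is given. The fit with a dye term used the 4 arrays without averaging. It counts arrays of the same RNA as separate replicates, so its p-values are not an independent check. The variance prior was infinite in both, so all genes share a standard error of 0.15 or 0.16. The adjusted p therefore depends on the mean alone and does not reflect the spread of a gene over the arrays. Fits were tested on simulated data. The 10 genes and the lists were chosen with earlier results of these data known. Named genes were the 10 genes, every list gene past the test and up to 2 others by size of mean per list, neighbours and nearest genes. A few more, such as FLO11 and BAR1, were chosen after their values were seen. SDs are over 4 arrays from 2 cultures. Sequences were not used here.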

Additional observations from a re-analysis of the deposited data

Results flagged for a closer look

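Of 74 genes with 4 values (the 10 genes, the lists, neighbours and nearest genes), 5 had an array far from the other 3, where chance gives about 1 in 20. On array 2, FUS1 stood at 0.54, SHO1 at 0.82 and PRM8 at -0.61. PRM9 stood at 0.0996 on array 4 and MFA2 at 0.092 on array 1. Array 2 had the widest ratios of the 4, and its part in these values was not tested.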

How the results depend on the processing

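Taking the deposited ratios as already turned reversed PRM10 (-0.98), NFG1 (-0.26), KSS1 (-0.22), SFG1 (0.20), PCL2 (-0.18), NRG1 (-0.16) and AFB1 (-0.54), and put FAR1 at 0.017. With it 215 genes were higher and 101 lower over all genes, 0 of the 10 genes were higher and PRM10 was lower, 1 gene of the wider lists was higher and 2 lower, and the medians were -0.11 (PRM family), -0.21 (filamentation targets) and 0.045 (genes of a cells). Over all genes, 68 were higher and 9 lower with a dye term, against 111 and 38, and 12 and 14 were lower with scaled and with centred arrays. With the dye term 1 gene of the wider lists rose, and in the pairing of arrays 1 and 2 alone 3 rose (MSB2 besides PCL2 and NRG1) and 1 fell (PHD1). With genes of 3 values included 3 rose, XBP1 among them. The filamentation median was 0.49 with scaled arrays. With 1 array left out, 8 to 23 genes were higher and 0 to 3 lower. Of the 10 genes 1 to 2 were higher, NFG1 always among them, and 0 lower. Of the wider lists 0 were higher, and the filamentation median was 0.26 to 0.39. The cause of these changes was not tested. The replicate numbers name arrays of a single comparison. Each ratio is already a paired value, because every array sets treated RNA against untreated RNA of the same culture. Both arrays of each culture compare the same RNAs, so only 2 cultures stand behind every value.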
